A study of Mus musculus with 12 samples.

Results

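Galectins are proteins that bind sugars, and the transcripts of 4 of them, Lgals1, Lgals3, Lgals8 and Lgals9, were followed in single mouse embryos at embryonic day 9.5 (E9.5). The 4 genes were picked by their symbols from a table of 54532 genes. The choice was made with results of the same comparison known, in which Lgals1 was 1 of 3 genes called, so the fold changes of the 4 genes are given as a description. The table held 12 bulk RNA-seq libraries of C57BL6/J whole embryos, each from 1 embryo. Of these, 6 were homozygous for a deleted Traf7 allele (Traf7-*/-*, KO), and 6 were wild type (WT). The asterisk marks alleles from the mouse line that also carries a small intronic deletion in 2310061I04Rik (Rik), which like Traf7 lies on chromosome 17. Between the groups, loss of Traf7 and loss of Rik therefore cannot be told apart. The deleted allele came from floxed animals crossed with mice carrying E2a-Cre, which acts in the whole body, and animals homozygous for it die soon after the stage sampled. The series title names brain, while the labels of each of the 12 samples name E9.5 embryos, which was followed here. Litters are not given in the labels, so that p-values speak only of the spread among the 12 embryos sampled.

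Galectins bind beta-galactosides, above all the N-acetyllactosamine units at the ends of N- and O-glycans, and by linking several glycoproteins they hold receptors at the cell surface. Most lack a signal peptide and reach the outside of the cell by an unconventional route. Galectin-1, from Lgals1, has 1 sugar-binding domain and pairs with itself. It is made by mesenchyme, muscle and the maternal decidua. Galectin-3, from Lgals3, joins its sugar-binding domain to a flexible tail through which it forms oligomers, and it is known from macrophages and, in mouse embryos, the notochord. Galectin-8 and galectin-9, from Lgals8 and Lgals9, each hold a pair of different sugar-binding domains in 1 chain. Galectin-8 also binds glycans exposed inside broken endosomes and lysosomes and in human cells recruits the autophagy receptor CALCOCO2, and galectin-9 attracts eosinophils and binds the T cell receptor protein Havcr2 (TIM-3).

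Library totals lay between 16675204 and 21917571 counts. Traf7 was at 13.1 to 19.3 CPM (reads of the gene per 1000000 reads counted) in KO and at 114.5 to 144.3 CPM in WT embryos, and Rik averaged 2.38 ± 1.99 CPM in KO and 12.1 ± 3.64 CPM in WT embryos (SD, n = 6 each). KO embryo 6 kept 6.39 CPM of Rik, near the lowest WT embryo at 7.20 CPM, while the other KO embryos had 1.14 to 2.03 CPM and its Traf7 was as low as theirs. Lgals1 in KO embryo 6, at 41.9 CPM, lay within the range of the other KO embryos. Some embryos stood apart in the lists of cell type and tissue markers. Summed transcripts of 17 posterior Hox genes were at 7.14 CPM in KO embryo 2, at 16.4 CPM in KO embryo 3, at 167 CPM in KO embryo 6 and at 214 CPM in WT embryo 5, and no other embryo was outside 298 to 356 CPM. Heart muscle markers summed to 28.3 CPM in KO embryo 3, and to between 667 and 1084 CPM in all others. Yolk sac endoderm markers were highest in KO embryo 6, KO embryo 5 and WT embryo 2. In the fit of KO against WT over all 14804 genes that passed a filter on low counts (edgeR's quasi-likelihood test with Benjamini-Hochberg adjustment), 3 genes, which is 0.0203%, had an adjusted p of 0.05 or less, all lower in KO, and 2644 genes (17.9%) had an unadjusted p of 0.05 or less. The choice of tool weighed on these counts, with 316 genes called by DESeq2 (2.21%) and 53 by limma voom (0.358%).

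Lgals1 (ENSMUSG00000068220) lies on the plus strand of chromosome 15 at 78926725 to 78930465 (GRCm38) and had the highest level per gene length of the galectins in every embryo. In KO embryos 1 to 6 its level was 43.3, 50.7, 35.3, 37.5, 47.9 and 41.9 CPM. In WT embryos 1 to 6 it was 60.0, 72.0, 66.4, 59.4, 61.3 and 73.0 CPM. All 6 KO embryos were below every WT embryo, with KO embryo 2 the nearest to WT and KO embryo 3 the farthest. Groups did not overlap in this direction for 258 of all tested genes, or 1.74%. The mean was 42.8 ± 5.90 CPM in KO and 65.4 ± 6.07 CPM in WT embryos (SD, n = 6 each), so that the KO mean was 65.4% of the WT mean. The log2 fold change was -0.61 with a standard error of 0.09 and a 95% interval of -0.80 to -0.42. Its counts ran from 628 to 1115 in KO and from 1005 to 1233 in WT embryos. At these counts, counting error alone gives a coefficient of variation of 3.43% in KO and 2.98% in WT embryos, while the observed coefficient was 13.8% among KO and 9.29% among WT embryos. The observed spread, which holds differences between embryos and between library preparations, was thus larger than counting error alone. Lgals1 had rank 3 by p over all genes, with an adjusted p of 0.0383 by edgeR, the value for which it was chosen. The next gene outside the threshold was Rik, at an adjusted p of 0.155.

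**Figure D1:**
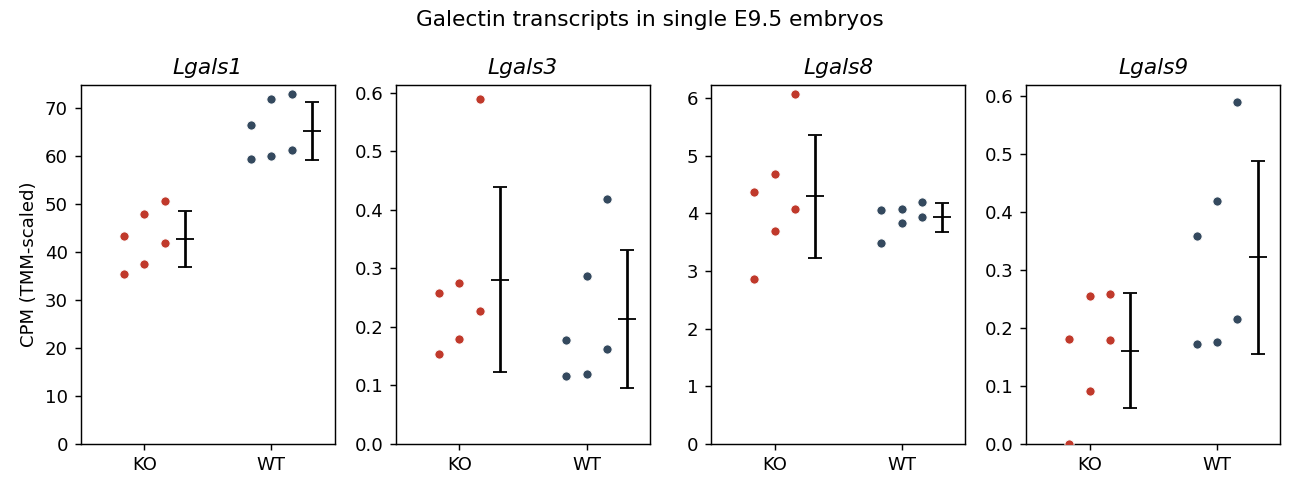
Level of Lgals1, Lgals3, Lgals8 and Lgals9 in CPM (vertical axes from 0, a scale of its own for each gene) in 6 KO and 6 WT embryos, 1 point an embryo, with the mean and SD beside the points. For Lgals1 the 6 KO points lie at 35.3 to 50.7 CPM and the 6 WT points at 59.4 to 73.0 CPM, while the groups overlap for the other 3 genes.

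The size of the Lgals1 difference varied little with the processing, whereas its place relative to the threshold did. Under 25 other settings the log2 fold change lay between -0.67 and -0.56. It was called under 10 of them, DESeq2 (adjusted p = 1.55e-06) and limma voom (adjusted p = 0.0048) included, and was not under the other 15, among them the scaling by library totals alone (adjusted p = 0.074, edgeR). Leaving out a single embryo ended the call in 10 of 12 cases, with edgeR adjusted p-values between 0.0146 and 0.154. It was kept only without KO embryo 2 or without KO embryo 5, and lost without KO embryo 1, 3, 4 or 6 and without any 1 of the 6 WT embryos. With KO embryos 2, 3 and 5 all left out the log2 fold change was -0.67 (adjusted p = 0.00112, edgeR), and without KO embryos 2, 3 and 6 and WT embryo 5, those lowest in posterior Hox transcripts, it was -0.63 (adjusted p = 0.319, edgeR). KO embryos 2 and 5, at 50.7 and 47.9 CPM, were the KO embryos highest in Lgals1. Leaving either out widens the difference by that alone, so the calls kept without them are no added support.

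**Figure D2:**
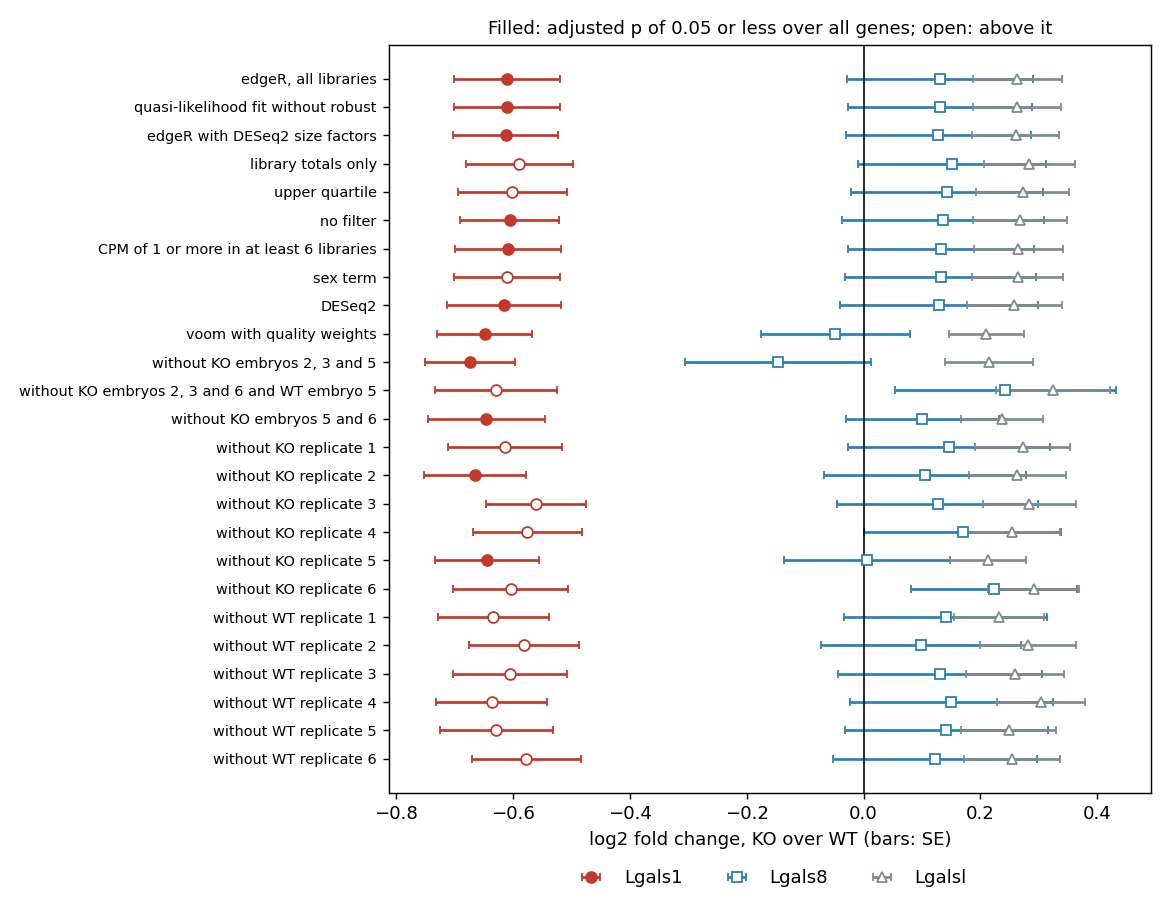
Log2 fold change of KO over WT (horizontal axis, bars are standard errors) of Lgals1, Lgals8 and the galectin-related gene Lgalsl in the fit of all 12 libraries and under other settings, 1 row each. Symbols are filled where the adjusted p over all genes was 0.05 or less. Lgals1 stays between -0.67 and -0.56, Lgals8 lies on both sides of 0 and is never called, and Lgalsl stays between 0.21 and 0.32 and is never called.

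In a whole embryo, fewer cells of a type and less RNA per cell cannot be told apart, so the markers of tissues known to make galectin-1 were read beside it. All 13 mesenchyme markers, which are collagens, mesenchymal transcription factors, the PDGF receptors and the intermediate filament gene Vim, had a log2 fold change below 0, with a median of -0.09, against 0.01 for all genes tested, and none was called. Below 0 was also the sign of 48.4% of all genes tested. Their summed level was 1792 to 2426 CPM in KO and 1847 to 2514 CPM in WT embryos, with medians of 1957.5 and 2163.7 CPM. The ranges overlapped through KO embryo 5 and WT embryo 1. The other KO embryos had at most 2047 CPM and the other WT embryos at least 2084 CPM. WT embryos 6 and 2, highest in Lgals1, had the highest sums of mesenchyme markers as well, at 2514 and 2487 CPM, and KO embryo 3, lowest in Lgals1, had the lowest, at 1792 CPM. Other embryos did not follow this order. KO embryo 5 had the next highest sum, 2426 CPM, with 47.9 CPM of Lgals1, whereas WT embryo 1 had 1847 CPM of the markers, below 4 of the KO embryos, with 60.0 CPM of Lgals1. The summed myotome list was lowest in KO embryo 3 too, at 93.2 CPM, where every other embryo had 564 to 809 CPM. Most of that sum was the cardiac actin gene Actc1, with a mean of 472 ± 235 CPM in KO and 512 ± 74.1 CPM in WT embryos. Myog averaged 2.75 ± 1.05 CPM in KO and 4.41 ± 1.69 CPM in WT embryos (log2 fold change -0.68, adjusted p = 0.295, edgeR). Myf5 averaged 1.76 ± 0.76 CPM in KO and 2.66 ± 1.05 CPM in WT embryos (-0.60, adjusted p = 0.327, edgeR). The log2 fold change was -0.16 for Des, 0.08 for Pax3 and 0.02 for Met. Heart muscle markers were low in KO embryo 3 as well, at 28.3 CPM. A lack of myotome apart from heart muscle was not tested. Of 13 trophoblast and decidua markers 4 passed the filter. These were Hand1, which lateral mesoderm and heart also express, and Cryab, Dcn and Plac1, all with a log2 fold change below 0 and none called. The sum over the list was 12 to 68.3 CPM in KO and 52.5 to 90.5 CPM in WT embryos. Its low end was KO embryo 3, and the other KO embryos had at least 37.6 CPM. Hand1 had the largest part in it, with a mean of 25.1 CPM in KO and 44.4 CPM in WT embryos. The placental markers Tpbpa, Synb and Prl3c1 had no count in any library. A list of 30 target genes of the hypoxia-inducible factor (HIF) moved with the groups too, with 29 of 29 tested genes above 0, beside 7646 of all 14804 genes tested. None was called by edgeR, 17 were called by DESeq2 (2.21% of all genes) and 5 by limma voom (0.358% of all genes). Its sums were highest in KO embryo 5 (27143 CPM) and KO embryo 3 (22398 CPM), which were the second highest and the lowest of the KO embryos in Lgals1. The part of these tissues and genes in the Lgals1 difference was not tested.

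Lgals8 (ENSMUSG00000057554), at 12439415 to 12464944 on the minus strand of chromosome 13, was the only other member to pass the filter. Its level was 4.08, 4.69, 4.37, 3.70, 6.07 and 2.86 CPM in KO embryos 1 to 6. In WT embryos 1 to 6 it was 4.06, 3.48, 3.93, 4.20, 4.08 and 3.83 CPM. The KO embryos reached beyond the WT range on both sides, with 3 above the highest WT embryo and 1, KO embryo 6, below the lowest. The means were 4.30 ± 1.07 CPM in KO and 3.93 ± 0.25 CPM in WT embryos (SD, n = 6 each), with a log2 fold change of 0.13 and a 95% interval of -0.21 to 0.47. A difference of up to that size in either direction was not resolved. KO embryos also spread wider, with a coefficient of variation of 25.0% among KO and 6.47% among WT embryos. Counting error alone, at 52 to 134 counts in KO and 59 to 73 in WT embryos, gives 10.8% in KO and 12.1% in WT embryos. The WT embryos thus varied less than counting alone would give on average, and the difference in spread was not tested. A wider spread in KO was not particular to Lgals8. It was seen, for example, in Bsg (594 ± 179 CPM in KO, 459 ± 32.2 CPM in WT embryos) and Lamp2 (100.9 ± 16.2 and 89.1 ± 4.18 CPM). In the galectin-related gene Lgalsl the coefficient hardly differed, at 9.56% in KO and 8.77% in WT embryos. The direction of Lgals8 turned with the libraries used, with a log2 fold change of -0.15 without KO embryos 2, 3 and 5 and of -0.05 by limma voom. Lgals8 overlaps 875 bases of Heatr1 on the opposite strand, a ribosome biogenesis gene with a mean of 2585 counts a library, and, with no strand setting stated for the counting, reads of the overlap could not be told apart.

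Lgals3 and Lgals9 were close to the limit of detection and were below the filter, so no test was made of them. Lgals3 (ENSMUSG00000050335, chromosome 14, 47367751 to 47386160, plus strand) had 5, 5, 3, 3, 13 and 5 counts in KO embryos 1 to 6. It had 2, 3, 3, 5, 2 and 7 counts in WT embryos 1 to 6. Only KO embryo 5, with 13 counts or 0.589 CPM, was above the WT range. Summed over 6 embryos, the level was 0.288 CPM in KO (95% exact Poisson interval 0.200 to 0.403) and 0.213 CPM in WT embryos (0.133 to 0.322), intervals that overlap and cover counting error only. Macrophage markers were scarce as well, but 3 of 14 (Csf1r, Mrc1 and Cd68) passed the filter that Lgals3 did not pass. The sums of the 14 markers were 2.33 to 4.55 CPM in KO and 3.64 to 5.03 CPM in WT embryos. KO embryo 5, highest in Lgals3, had 4.39 CPM of them, within the range of the other embryos. Of 8 notochord markers tested, 6 were above 0 and 2 below, Noto (log2 fold change -1.82) and T (-0.54), and none was called. Sox9 had the largest part in their sum, with a mean of 72.5 CPM in KO and 65.1 CPM in WT embryos. Notochord markers summed to 124 to 146 CPM in KO and 116 to 134 CPM in WT embryos, and their highest sum was that of KO embryo 5. So was that of megakaryocyte and platelet markers, at 68.2 CPM, against 14.7 to 27.1 CPM in all other embryos. Their part in the Lgals3 value was not tested.

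Lgals9 (ENSMUSG00000001123, chromosome 11, 78962974 to 78984946, minus strand) had 5, 2, 5, 3, 4 and 0 counts in KO embryos 1 to 6. It had 6, 10, 4, 3, 3 and 7 counts in WT embryos 1 to 6. No KO embryo had more than 5 counts and no WT embryo fewer than 3, and the groups overlapped. The count of 0 in KO embryo 6 allows a level of up to 0.166 CPM. The pooled level was 0.161 CPM in KO (95% exact Poisson interval 0.0969 to 0.251) and 0.319 CPM in WT embryos (0.219 to 0.448). These intervals overlap and cover counting error only. Overlap of such intervals, here and for Lgals3, is no test of a difference. In a fit with no filter the log2 fold change was -0.96 with a 95% interval of -2.13 to 0.20, and for Lgals3 it was 0.41 with an interval of -0.64 to 1.45.

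Compared per gene length, in the FPKM values of the table, the galectin family of 10 genes was spread over several orders of magnitude. Lgals1 averaged 46.9 ± 6.49 FPKM in KO and 71.9 ± 6.68 FPKM in WT embryos (SD, n = 6 each), above 92.3% of the protein-coding genes tested in KO and 95.4% in WT embryos. Lgalsl followed at 8.53 ± 0.78 FPKM in KO and 7.13 ± 0.62 FPKM in WT embryos, and Lgals8 at 1.15 ± 0.28 FPKM in KO and 1.06 ± 0.07 FPKM in WT embryos. Lgals1 and Lgalsl were the highest and the next highest gene in both groups, and within a group their ranges overlapped neither with each other nor with those of the other genes. The gut galectin Lgals2 averaged 1.96 FPKM in KO and 0.859 FPKM in WT embryos, with ranges of 0.0765 to 6.47 FPKM in KO and 0.0905 to 2.97 FPKM in WT embryos that took in all values of Lgals8. By mean, Lgals8 thus had rank 4 in KO and rank 3 in WT embryos, and the order of these genes did not stand clear of the spread. Below these came Grifin, a galectin-like gene of the lens, at a mean of 0.357 FPKM in KO and 0.610 FPKM in WT embryos. The skin galectin Lgals7 averaged 0.112 FPKM in KO and 0.121 FPKM in WT embryos, beside Lgals3 at 0.149 FPKM in KO and 0.114 FPKM in WT and Lgals9 at 0.0743 FPKM in KO and 0.150 FPKM in WT embryos. These 3 genes, Lgals12 of fat cells and Lgals4 of the gut did not differ from their neighbours in the order beyond their spread, and Lgals3 was sixth in KO and eighth in WT embryos.

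**Figure D3:**
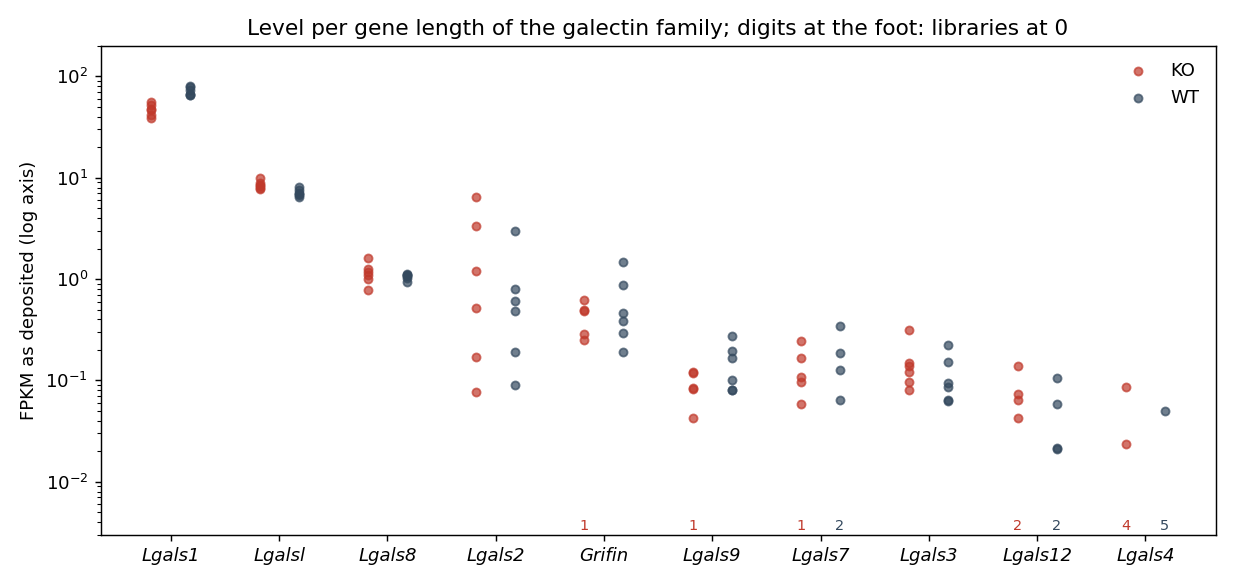
FPKM on a log axis of 10 galectin family genes in 6 KO (left) and 6 WT (right) embryos, 1 point a library, with the number of libraries at 0 written at the foot. Lgals1 and Lgalsl each form a separate level, and Lgals8 and the genes right of it overlap with at least 1 neighbour.

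Lgals1 made up 79.1 ± 3.60% of the summed FPKM of the 10 genes in KO and 87.7 ± 1.26% in WT embryos (SD, n = 6 each), with ranges of 74.3 to 84.4% in KO and 86.4 to 89.6% in WT embryos that rest on the same Lgals1 values. The share of Lgalsl was 14.5 ± 1.70% in KO and 8.75 ± 1.05% in WT embryos. Lgalsl encodes the galectin-related protein, whose human form does not bind lactose. Its level was 34.4, 35.4, 33.0, 36.6, 41.5 and 32.0 CPM in KO embryos 1 to 6. In WT embryos 1 to 6 it was 26.3, 31.4, 29.1, 33.6, 28.0 and 28.7 CPM. Above the highest WT embryo were 4 KO embryos, and the other KO embryos were within the WT range. All KO embryos above all WT embryos, which Lgalsl did not reach, was seen for 1.09% of all genes tested. The means were 35.5 ± 3.39 CPM in KO and 29.6 ± 2.59 CPM in WT embryos, a log2 fold change of 0.26 with a standard error of 0.08, which did not pass the test over all genes (adjusted p = 0.169, edgeR, and 0.0585, DESeq2).

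Lgals2 varied more between embryos than between genotypes. It had 6, 1, 2, 12, 44 and 70 counts in KO embryos 1 to 6. In WT embryos 1 to 6 it had 8, 30, 1, 2, 5 and 6 counts. The level was highest in KO embryo 6 (3.86 CPM), KO embryo 5 (1.99 CPM) and WT embryo 2 (1.77 CPM), and at most 0.716 CPM in the other 9 embryos. The same 3 embryos, in the same order, had the highest sums of yolk sac endoderm markers, such as the apolipoproteins and transthyretin that this layer secretes, at 635, 473 and 419 CPM, against 76.1 to 171 CPM in the other 9. The part of yolk sac tissue in the Lgals2 level was not tested. Lgals3bp, a secreted glycoprotein that binds galectin-3, was at 1.40 ± 0.66 CPM in KO and 1.22 ± 0.47 CPM in WT embryos (SD, n = 6 each), with a log2 fold change of 0.20 (adjusted p = 0.801, edgeR).

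Of a list of 31 galectin ligands and counter-receptors, 27 were tested and none was called by edgeR, DESeq2 or limma voom. Of all genes, these called 0.0203%, 2.21% and 0.358%. Of these 17 were above 0 and 10 below, with a median log2 fold change of 0.12, against 0.01 for all genes tested. At an unadjusted p of 0.05 or less were 4 of the 27, beside 17.9% of all genes tested. They were Mertk, a receptor tyrosine kinase of phagocytosis (8.17 ± 2.44 CPM in KO, 6.09 ± 0.74 CPM in WT embryos), Bsg, the immunoglobulin family protein basigin (log2 fold change 0.37), Lama1, a chain of the basement membrane protein laminin (0.25), and Mcam, an adhesion molecule of vessels (-0.16). The lysosomal membrane protein Lamp2 was at 100.9 ± 16.2 CPM in KO embryos, against 89.1 ± 4.18 CPM in WT embryos (adjusted p = 0.290, edgeR), with the highest value, 131.5 CPM, in KO embryo 5. The leukocyte glycoproteins Ptprc, Spn and Thy1 and the galectin-9 receptor Havcr2 were below the filter. The gene of the list farthest from 0, named after its values were seen, was Slc2a2, a glucose transporter of liver and yolk sac, at 3.10 ± 4.52 CPM in KO and 1.26 ± 2.25 CPM in WT embryos (log2 fold change 1.30, adjusted p = 0.620, edgeR).

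The genes of the enzymes that build galectin-binding glycans all passed the filter. Of 27 genes for N-glycan branching and poly-N-acetyllactosamine synthesis, 27 were tested, 10 were above 0 and 17 below, and the median log2 fold change was -0.01. None was called by edgeR or DESeq2, which called 0.0203% and 2.21% of all genes. At an unadjusted p of 0.05 or less were 5 of the 27, a share near the 17.9% of all genes tested. Among these, the sugar-nucleotide transporter Slc35a3 was at 21.7 ± 1.60 CPM in KO and 18.7 ± 1.80 CPM in WT embryos (log2 fold change 0.22). Man2a2, a mannosidase that trims N-glycans before branching (0.16), and Mgat3, which adds the bisecting sugar (0.20), were above 0, and Mgat2, which starts the second branch, was below (-0.15).

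B3gnt3, which extends N-acetyllactosamine chains, chiefly on O-glycans, depended on 1 embryo. It was at 0.310 to 0.477 CPM in 5 KO embryos and at 2.58 CPM in embryo 5 of the same genotype. The 6 WT embryos had 1.02 to 2.16 CPM. The 5 KO embryos other than embryo 5 were thus below every WT embryo, and KO embryo 5 above every one. Over all libraries the log2 fold change was -1.06 with a standard error of 0.47 (adjusted p = 0.270, edgeR). Without KO embryo 5 it was -1.996 with a standard error of 0.26 and was called (adjusted p = 0.00793, edgeR), and limma voom, which weights libraries by their quality, called it with all of them (log2 fold change -1.91, adjusted p = 0.0184). KO embryo 5 is the embryo that stood out in B3gnt3 itself, so the call without it is no support for a difference. The limma voom value lay nearer to the value without KO embryo 5 than to the edgeR value over all libraries. Its call is therefore no separate support. The other 11 fits that left out 1 embryo did not call B3gnt3. Without KO embryos 2, 3 and 6 and WT embryo 5 it was -0.47 (adjusted p = 0.695, edgeR).

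Of 23 genes that act with galectins at damaged endosomes and lysosomes, 22 were tested, 10 were above 0 and 12 below. The median log2 fold change was -0.04, and none had an unadjusted p of 0.05 or less by edgeR, beside 17.9% of all genes tested. None was called by DESeq2 or limma voom, which called 2.21% and 0.358% of all genes. Calcoco2, whose human product binds galectin-8, was below the filter. The smallest p-values were those of the autophagy receptor Optn (4.39 ± 1.74 CPM in KO, 3.19 ± 0.65 CPM in WT embryos), Lamtor1, which anchors a kinase-regulating complex to the lysosome (log2 fold change -0.10), the sugar-binding ubiquitin ligase subunit Fbxo27 (0.40), the GTPase Rragb (0.19) and the membrane repair gene Tsg101 (-0.15). KO embryo 5 had the highest Optn, at 7.84 CPM, and the lowest Tsg101, at 61.8 CPM.

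**Figure D4:**
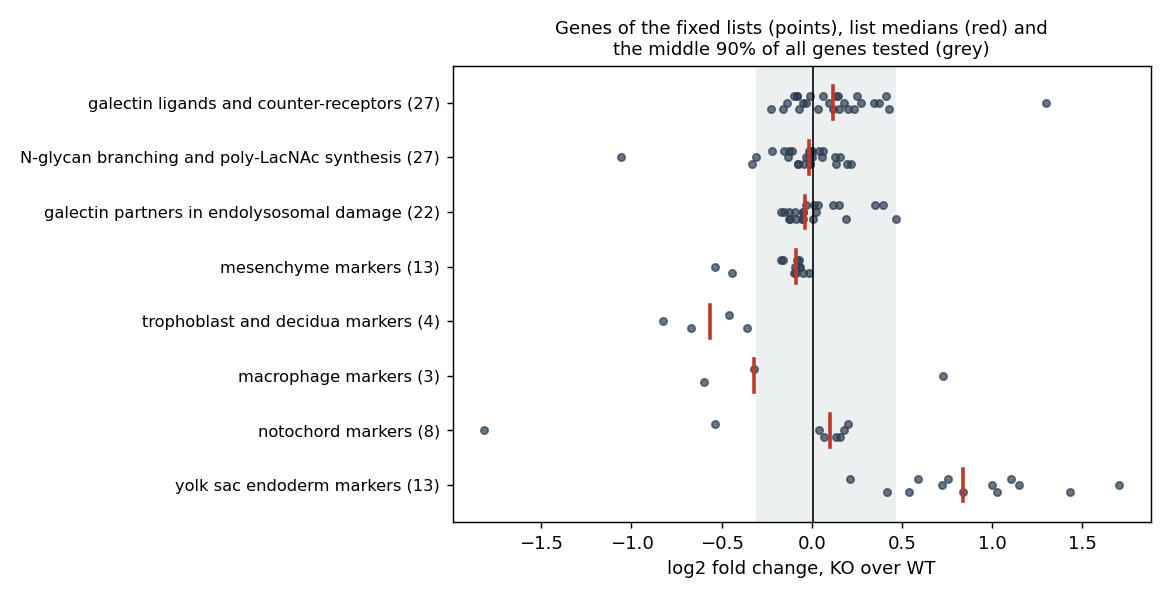
Log2 fold change of KO over WT (horizontal axis) of the tested genes of 8 lists, 1 point a gene, with the list median in red, the middle 90% of all genes tested in grey and the number tested in brackets. The medians of the ligand (0.12), glycan synthesis (-0.01) and endolysosomal (-0.04) lists lie near 0, and that of the yolk sac endoderm markers is 0.84, with none called. Summed, the yolk sac markers were at 473 and 635 CPM in KO embryos 5 and 6 and at 76.1 to 137 CPM in the other KO embryos. The other medians are -0.09 (mesenchyme), -0.57 (trophoblast and decidua), -0.32 (macrophage) and 0.10 (notochord). The band shows the spread of single genes and is no measure for a median.

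Around Lgals1, 7 other genes within 100 kb were tested and none was called (0.0203% of all genes were), 4 above 0 and 3 below. At an unadjusted p of 0.05 or less were 6 of the 7, beside 17.9% of all genes tested, 3 of them above 0 and 3 below. They ran from -0.30 for Nol12, a nucleolar protein gene 4468 bases away (adjusted p = 0.165, edgeR), to 0.38 for Triobp, which encodes an actin-bundling protein. The processed copies Lgals1-ps1, on chromosome 17 538472 bases from Rik, and Lgals1-ps2, on chromosome 15, had no count in any library. The genes whose log2 CPM followed that of Lgals1 most closely over the 12 libraries, among 9403 protein-coding genes with a mean of at least 10 CPM, were Rnh1, a ribonuclease inhibitor (Pearson r = 0.945), Atp5b (0.914), Ppp2r1a (0.891), Lrwd1 (0.890) and Pcdh12 (0.885), values that hold the difference between the groups. With each group's mean taken off, they were Hspb8 (0.877), Rassf8 (0.822), Zfp9 (0.810), Dnajb4 (0.804) and Fam57a (0.800), and none of the 5 was on both lists. For Lgals8, Sgo2a was first by level (0.954), and after the group means were taken off Sgo2a was again first (0.954), followed by Dpysl2 (0.949). The genes closest to Lgals3 and Lgals9 are not named, since these members had 0 to 13 counts a library. These are descriptions over 12 libraries that differ in depth and in tissue markers, which enter the values of all genes of a library, and by rank correlation only 1 or 2 of the 5 closest genes were shared.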

How the data were processed

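Reads of 12 embryo libraries (6 KO, 6 WT) were counted per gene by the authors' service company on build GRCm38, as given in the submitters' processing notes. No source used here names the aligner, counter, versions or strand setting. The deposited table held raw counts and FPKM values (fragments scaled to gene length and library size, computed by the authors). The deposited columns of group means, fold changes and p-values were not used. Counts were filtered with filterByExpr, scaled by TMM and tested two-sided with edgeR 4.0.16 (robust quasi-likelihood F test, R 4.3.3), with Benjamini-Hochberg adjustment over 14804 genes. CPM are TMM-scaled. DESeq2 1.42.0 and limma 3.58.1 (voom with quality weights), other scalings and filters, a replicate block, a sex term and left-out embryos were alternatives. Sex was read from Y-linked transcripts, found in 3 KO and 3 WT embryos, and was not taken from the labels. The scripts were tested on simulated data. Members and lists were chosen with earlier results of these data known. Genes named were the members, the rest of the family, Traf7 and Rik, the 5 with the smallest p of each of the 3 pathway lists and the 5 most like Lgals1 or Lgals8 (for Lgals8 only the closest). Lgals3bp, Heatr1, the genes flanking Lgals1, Slc2a2 and the tested or undetected cell type markers were named in addition, after their values were seen. Depth was 16675204 to 21917571 counts a library, and a count of 0 allows up to 3 counts, or 0.137 to 0.180 CPM. Replicate libraries differed by far more than sampling noise.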

Additional observations from a re-analysis of the deposited data

Results flagged for a closer look

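Over 28 genes in 2 groups of 6 embryos each, 56 groups in all, a single embryo lay far from the rest of its group in 12. The cutoff used is passed by about 1 in 20 groups of independent, normally distributed values. Counts near 0 are not such values, the genes share the same embryos, and some were picked by their p. The 12 can therefore not be set against chance. KO embryo 5 accounted for 6 of these, with Lgals3 at 0.589 CPM (other KO embryos at most 0.275), Lamp2 at 131.5 CPM, B3gnt3 at 2.58 CPM, Optn at 7.84 CPM, Tsg101 at 61.8 CPM and Traf7 at 13.1 CPM. Tsg101 and Traf7 were below, and the other 4 above, those of the other KO embryos. The Lgals3 value rests on 13 counts. Lgals4 was at 0.203 CPM in KO embryo 3, which is 4 counts, and at 0.117 CPM in WT embryo 5, which is 2 counts. Lgals2 was at 1.77 CPM in WT embryo 2, where yolk sac endoderm markers were also the highest of the WT embryos. Rik was at 6.39 CPM in KO embryo 6, against at most 2.03 CPM in the other KO embryos and 7.20 CPM in the lowest WT embryo. Traf7 was at 144.3 CPM in WT embryo 1, and Optn at 4.37 CPM in WT embryo 5, both above the other WT embryos.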

How the results depend on the processing

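Lgals1 was lower in KO under all 25 alternatives. It was no longer called with library totals only (log2 fold change -0.59), upper-quartile scaling (-0.60), a sex term (-0.61) or without KO embryos 2, 3 and 6 and WT embryo 5 (-0.63), nor in 10 of the 12 fits that left out 1 embryo (-0.67 to -0.56 over the 12). With the replicate number as a block it was -0.62 (adjusted p = 0.102, edgeR). Same-numbered embryos correlated at -0.32 to 0.29 in their deviations, over 0.1 in 2 of 6 pairs, and 4 of 12 libraries correlated best with their own number, so the numbers were not taken to pair embryos. Lgals8 reversed by limma voom (-0.0485) and without KO embryos 2, 3 and 5 (-0.15). The 3 genes called became 316 by DESeq2, 53 by limma voom, 36 without KO embryos 2, 3 and 5, 53 without KO embryos 5 and 6, and 2 to 5 when 1 embryo was left out. Of the pathway lists and other galectins, 0 genes were called, and 1, B3gnt3, by limma voom, without KO embryos 2, 3 and 5 or without KO embryos 5 and 6, with 0 to 1 when 1 embryo was left out. Lgalsl stayed between 0.21 and 0.32 and was never called. Lgals3 lay between -0.05 and 0.70 and Lgals9 between -1.14 and -0.70 in 22 alternatives. Neither has a value by limma voom or with a stricter filter, since both genes are below the filter. At 0 to 13 counts a library, depth limits both.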
